A study of Mus musculus with 107 samples.

Results

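Intermediate filaments are rope-like polymers that give cells mechanical strength, and the proteins they are built from change with cell type and maturity. Neural progenitors are known for filaments of vimentin (Vim) and nestin (Nes), glial fibrillary acidic protein (Gfap) is the filament protein by which astrocytes are most often recognized, and reactive astrocytes are known to carry all of these. Synemin (Synm) joins filaments built by other members of the family, keratin 8 (Krt8) and keratin 18 (Krt18) pair with each other in simple epithelia, and plectin (Plec) is a linker that ties filaments to junctions and to the rest of the cytoskeleton. These 7 genes, of 27179 in every count table, were chosen by symbol, and each symbol matched 1 mouse Entrez identifier. The name glial intermediate filaments covers them only in part, since Plec is a cytolinker and not a filament protein, and Krt8 and Krt18 are epithelial keratins whose levels were highest in embryonic stem cells.

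RiboTag libraries hold RNA pulled down with ribosomes that carry an HA-tagged Rpl22, so each library, in 23 groups of 4 to 9 libraries, reports the ribosome-bound RNA of tagged cells in bulk. All are labelled strain C57BL/6 and genotype RiboTag +. Embryonic stem cells (ESC) came from blastocysts of RiboTag males crossed to RiboTag females with a maternal-effect Sox2-cre allele, and all neural progenitor cells (NPC) go back to 1 female stem cell line, so no group of NPC speaks for other lines. NPC grew in EGF and FGF at 100 ng/ml and were taken at passage 5, 15 and 30 (NPC P5, NPC P15, NPC P30) and as further derivations at passage 15 (NPC P15 D2, NPC P15 D3).

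Differentiated cultures had EGF and FGF lowered to 1 ng/ml for 4 days, either alone (SPONT) or with CNTF at 100 ng/ml, IGF-1 at 100 ng/ml, fetal bovine serum at 1%, 5%, 10% or 20% (1% FBS to 20% FBS), or CNTF at 100 ng/ml with 5% serum (CNTF + 5% FBS). Before grafting, NPC were passed through a glass pipette in medium (NPC media) or in a hydrogel (NPC DCH), or after 4 h in that gel (NPC DCH 4 h). Grafts in the gel went into spinal cord of adult C57/BL6 mice, female and male, aged 8 weeks to 4 months, either uninjured (Graft uninjured), 2 days after a crush at T10 (Graft SCI), or after a double crush (Graft dSCI). They were recovered at 14 d, or at 5 d in Graft SCI 5 d, and these days count from injury in the series' design text and in places from grafting, in places from injury in the study's own text. Host astrocytes came from healthy cord (Host healthy) or from cord 14 d after crush (Host SCI) of adults of the same ages, tagged through a Gfap-Cre driver line. That driver uses the Gfap promoter, so host cells were selected by a promoter of the very gene measured here, which limits them as a reference for Gfap.

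Several libraries stood apart before any test. All 6 libraries of NPC P15 D2 and all 5 of Graft SCI 5 d were deposited with 1 read data set each. They held 12286240 to 18085106 counts, against 30473157 to 147764968 in the other 96. The number of read data sets and depth therefore cannot be told apart from these groups. SPONT replicate 2 had the highest Plec of its group, NPC media replicate 1 the highest Gfap, Graft SCI 14 d replicate 5 the lowest Gfap, Vim and Nes, and Graft SCI 5 d replicate 4 a myeloid marker sum of 7103 CPM (counts scaled to a common library total) against 342 to 511 in the rest of its group. Where leaving out 1 of the 4 libraries named by replicate changed the call of a member, both values are given.

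**Figure D1:**
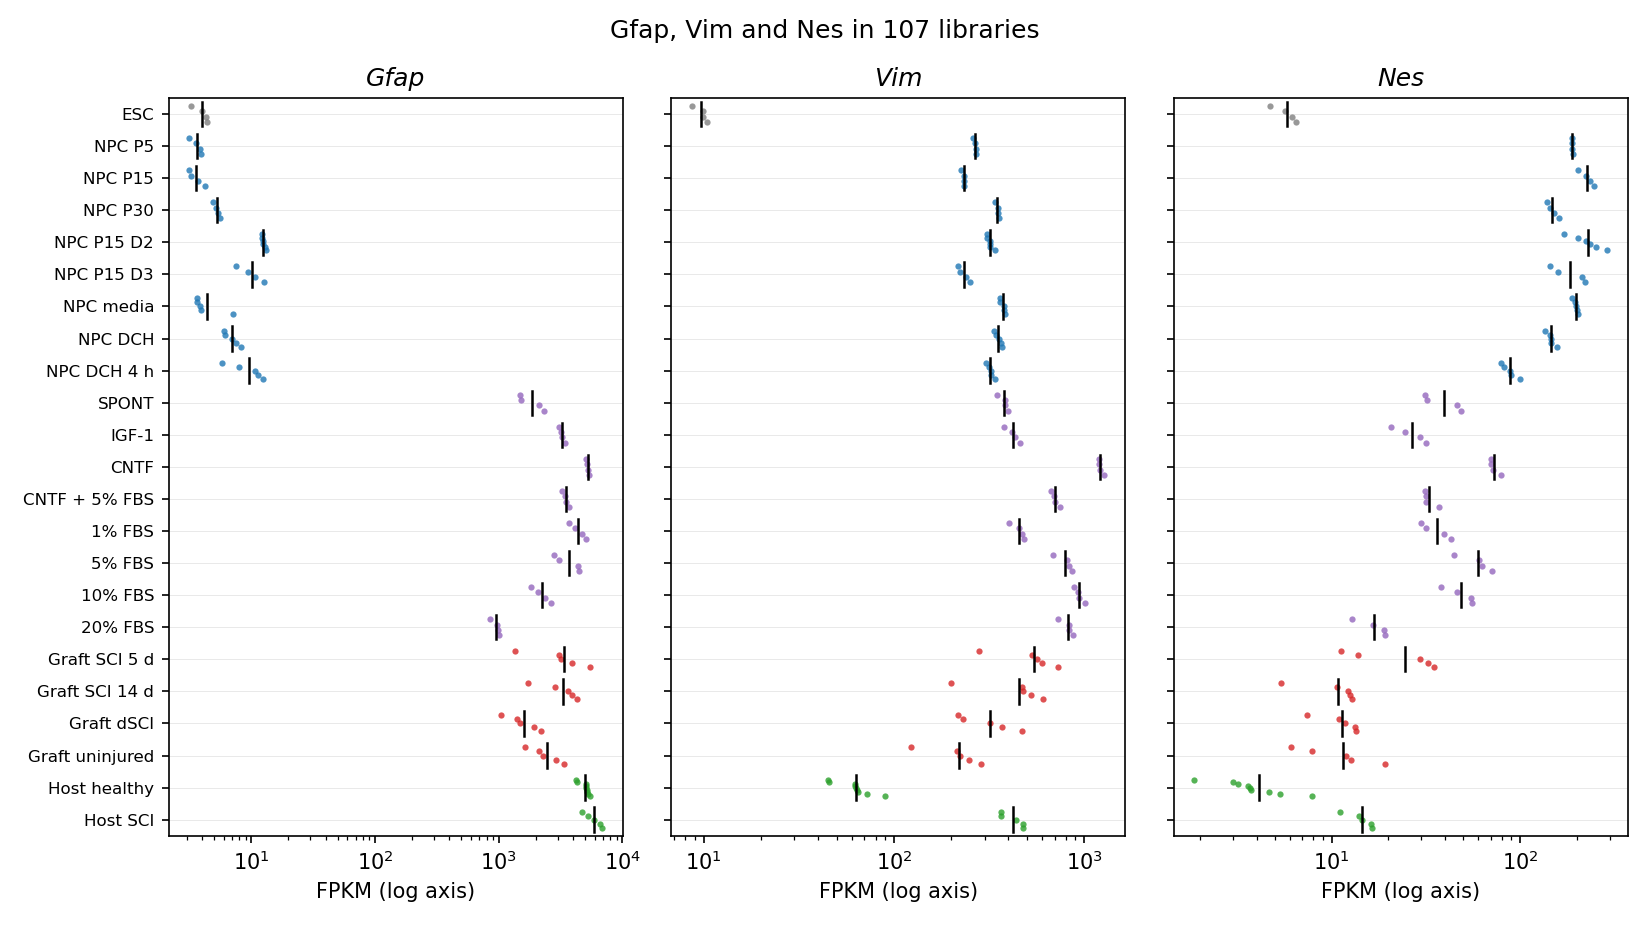
Gfap, Vim and Nes as FPKM, that is CPM divided by the summed length of the gene's exons in kilobases, in each library, on log axes. Each point is 1 library, sorted by value within its group, and black bars are group means. ESC are grey, NPC blue, differentiated cultures purple, grafts red and host astrocytes green.

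Apart from the keratins, whose lowest group means were 0, Gfap covered the widest range of the members. Its group means ran from 15.2 CPM in NPC P15 to 24692 CPM in Host SCI, a 1625-fold range. In descending order of mean CPM, Host SCI was followed by CNTF, Host healthy, 1% FBS, 5% FBS, CNTF + 5% FBS, Graft SCI 5 d, Graft SCI 14 d, IGF-1, Graft uninjured, 10% FBS, SPONT, Graft dSCI and 20% FBS, with every NPC group and ESC far below. Only 3 of the 22 neighbouring pairs in this order did not overlap: Graft dSCI with 20% FBS, 20% FBS with NPC P15 D2, and NPC DCH with NPC P30. The lowest library of 20% FBS held 3622 CPM and the highest library of any NPC group 55.1 CPM, so differentiated, grafted and host cells were wholly separate from NPC and ESC.

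Vim was present at high levels in every group except Host healthy and ESC. Its means ran from 5771 CPM in CNTF to 46.0 CPM in ESC, with 10% FBS, 20% FBS and 5% FBS next below CNTF and Host healthy, at 299 CPM, next above ESC. Here 7 of 22 neighbouring pairs were apart, among them CNTF from 10% FBS, Graft uninjured from Host healthy, and Host healthy from ESC.

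Nes was a progenitor gene in these libraries. The 7 highest group means all belonged to NPC, from NPC P15 D2 at 1466 CPM down to NPC DCH at 938 CPM, and the lowest was Host healthy at 26.3 CPM, below ESC at 37.04 CPM. Only NPC DCH and NPC DCH 4 h, of 22 neighbouring pairs, did not overlap.

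Synm was highest in grafts and injured host cells and Plec in grafts. Synm means ran from 91.6 CPM in Graft uninjured to 1.48 CPM in NPC DCH, with 4 of 22 neighbouring pairs apart. Plec means ran from 195 CPM in Graft dSCI to 9.61 CPM in NPC DCH 4 h, and all 22 neighbouring pairs overlapped. For every member the order of group means was nearly the same with CPM rescaled by TMM, a scaling that offsets the share of the library taken by a few genes (Spearman's rho 0.982 or higher over 23 groups).

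The keratins left most groups near 0. Krt8 was listed at 0 in 49 libraries and Krt18 in 66, and a library with 3 counts or fewer is treated here as at the floor, where 7 groups for Krt8 and 10 for Krt18 wholly lay. Krt8 averaged 23.1 CPM in ESC and 10.1 CPM in CNTF, and the next group, SPONT, had 1.54 CPM. Krt18 averaged 20.9 CPM in ESC and 0.340 CPM in the next group, Graft SCI 5 d. In most libraries small counts were even more often than odd (53.1% to 73.8% of counts from 1 to 20 in the 96 libraries), so both ends of a fragment were often counted. Floors and counting intervals take counts as independent and cover no spread between libraries. Where both ends were counted, floors are too low, lower bounds on folds too high and intervals too narrow even for counting error.

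**Figure D2:**
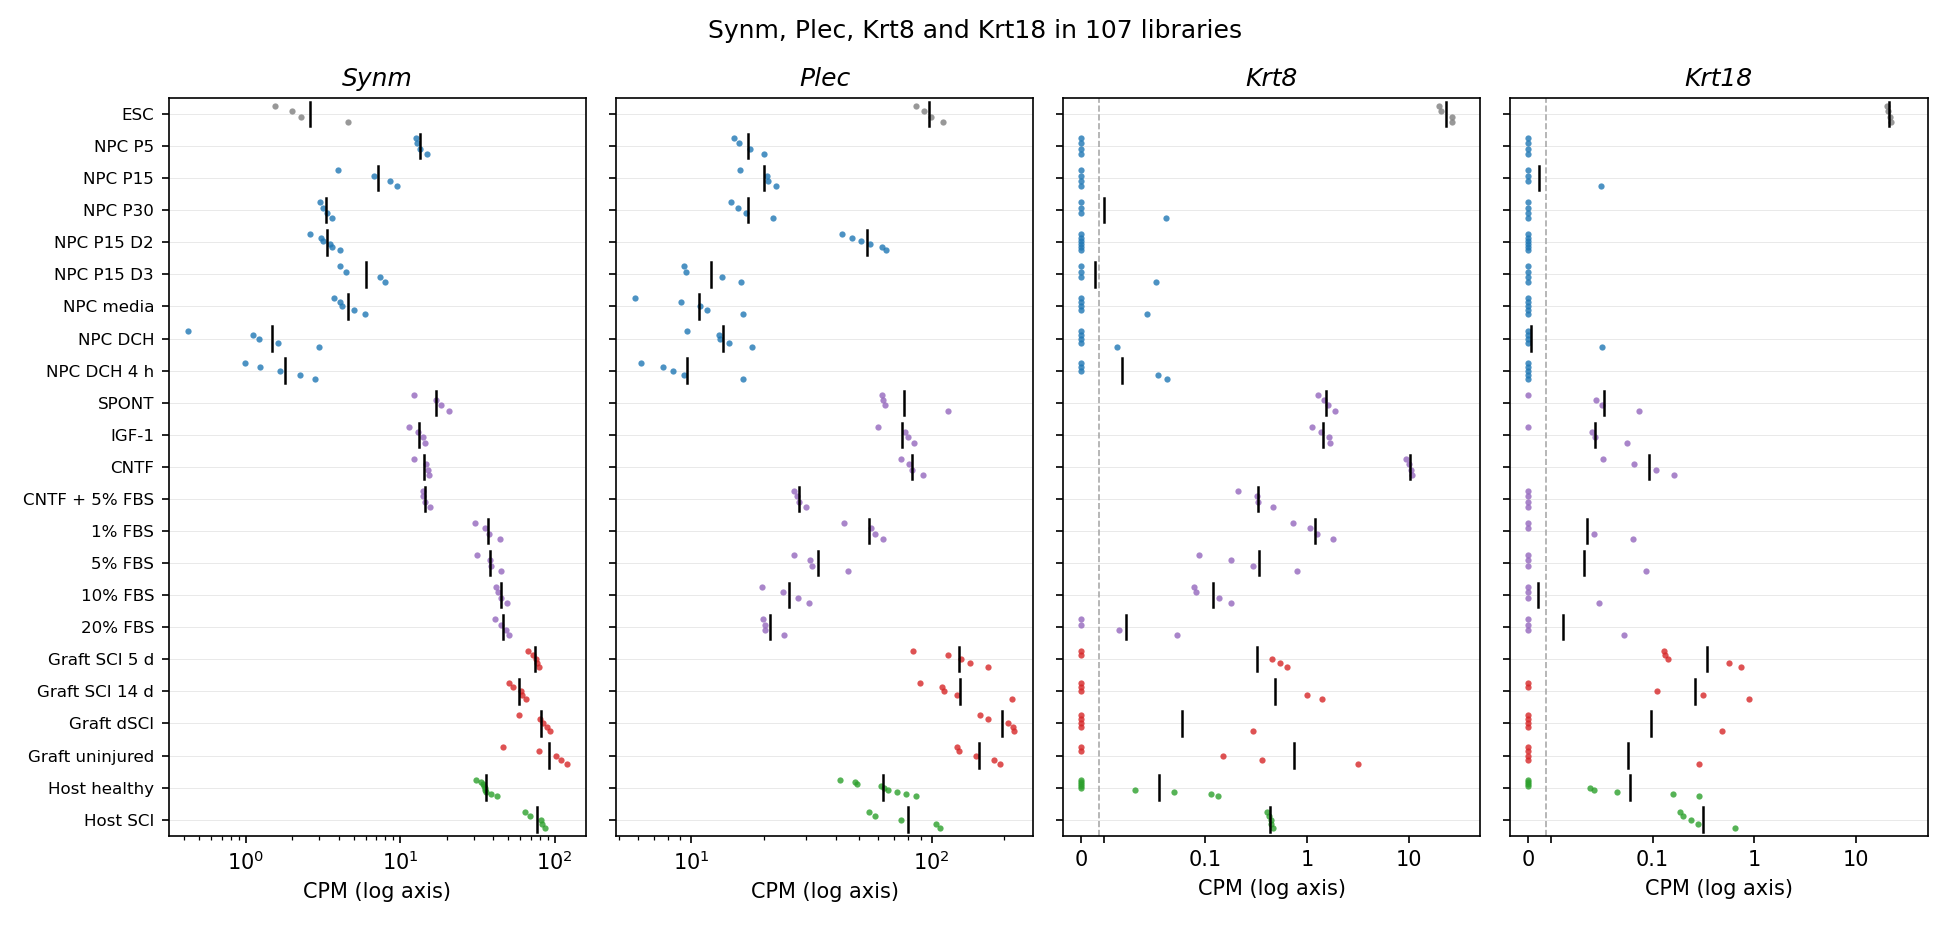
Synm, Plec, Krt8 and Krt18 in CPM in each library, on log axes. Each point is 1 library, sorted by value within its group, and black bars are group means. Libraries with no counts of a keratin stand left of the dashed line.

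From ESC to NPC P15, Vim and Nes rose and the keratins and Plec fell, while Gfap stayed at a like low level in both. Vim was 46.7, 49.3, 47.1 and 41.05 CPM in ESC and 1074, 1113, 1109 and 1111 CPM in NPC P15. The groups were far apart for Vim, and for Nes, whose ESC libraries held 30.4 to 41.7 CPM. Gfap was 18.3, 16.7, 18.4 and 13.8 CPM in ESC and 13.3, 17.8, 13.8 and 15.8 CPM in NPC P15, and these overlapped.

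A gene is called here when its adjusted p, over all genes tested in that comparison, was below 0.01 in edgeR. The fit of all 23 groups, cited as an alternative, takes 1 spread per gene over every group. Its adjusted p thus does not measure the spread within the groups compared alone. Between NPC P15 and ESC 5 of 7 members tested were called, against 67.2% of all genes tested. Vim had a log2 fold change (log2FC) of 4.49 (SE 0.06, n = 4 and 4, adjusted p 2.94e-13) and Plec one of -2.37 (SE 0.12). Gfap was not called (log2FC -0.23, SE 0.15, adjusted p 0.190), and neither was Synm (1.37, SE 0.41, adjusted p 0.0106), which was called without ESC replicate 4 (1.80, adjusted p 0.00162), without NPC P15 replicate 3 (1.56, adjusted p 0.00539), by DESeq2 (adjusted p 0.00306) and with all 23 groups in one fit (adjusted p 2.07e-06).

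Krt8 was 26.2, 20.3, 19.7 and 26.2 CPM in ESC and 0 in all libraries of NPC P15, at least 486-fold higher in ESC against a floor of 3 counts per library. Krt18 was 21.6, 20.5, 19.9 and 21.7 CPM in ESC against 2 counts in all of NPC P15, a ratio of 2796 with a 95% counting interval of 774 to 23090. Epithelial markers moved with the keratins: all 6 fell, their sum was 722, 775, 727 and 759 CPM in ESC with Cdh1 most abundant, and 0.288, 0.219, 0.279 and 0.607 CPM in NPC P15, where Cldn4, Esrp1 and Grhl2 were at the floor. Pluripotency markers, of which 6 of 6 fell, summed to 3269 to 3341 CPM in ESC with Tdgf1 most abundant, and to 6.63 to 11.9 CPM in NPC P15. The part of either cell state in the keratin levels was not tested. Sums also differed for astrocyte markers (6 higher and 2 lower of 10 tested, 1590.1 to 1621 against 352 to 370.4 CPM, Slc1a3 most abundant) and endothelial and pericyte (3 lower of 3 tested, 0.450 to 1.97 against 158.8 to 178.8 CPM, Pecam1 most abundant). Further sums apart were those of neuron markers (2 higher and 1 lower of 4 tested, 20.4 to 24.8 against 299.9 to 322 CPM, Stmn2 most abundant), myeloid (2 lower of 3 tested, 0.852 to 2.14 against 36.6 to 44.5 CPM, Cd68 most abundant) and ependymal (2 lower of 3 tested, 8.15 to 12.7 against 28.8 to 38.8 CPM, Foxj1 most abundant). Without overlap, too, were those of progenitor and cycling markers (4 higher and 4 lower of 8 tested, 1790.0 to 1812 against 2037 to 2245 CPM, Top2a most abundant), smooth muscle (3 lower of 3 tested, 1.53 to 2.71 against 13.0 to 17.5 CPM, Tagln most abundant) and fibroblast (1 higher of 5 tested, 23.2 to 32.8 against 9.87 to 15.5 CPM, Col3a1 most abundant), and their part was not tested. Sums that differed only below 10 CPM are mostly left out here and in what follows.

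Other intermediate filament genes mostly fell as well. Of 18 listed, 15 were tested, 12 fell and 0 rose, with a median log2FC of -5.65 against -0.10 over all genes. They included Des, the muscle filament desmin (from 41.3 CPM to 0), and Nefh, a neurofilament (-7.94). Of 10 filament linkers and chaperones 2 rose and 7 fell, among them the small heat shock gene Hspb1 (-8.83), and of 12 regulators of glial filament genes 6 rose and 2 fell, led by the glial transcription factors Sox9 (8.11) and Nfia (7.95), with list medians of -4.85 and 1.01.

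Passage and derivation moved Gfap only within the low range of NPC. In the study's text the passages came from a single derivation, and NPC P15 D2 and NPC P15 D3 were 1 derivation each. SE and adjusted p therefore measure spread between libraries of 1 derivation, and not between derivations or series of passages. Gfap was 15.1, 16.3, 16.5 and 13.4 CPM in NPC P5 and 23.4, 22.6, 22.1 and 20.7 CPM in NPC P30. Every NPC P30 library was above every NPC P5 library, and 4 of 5 members tested were called, against 35.5% of all genes tested. Gfap (log2FC 0.52, SE 0.12) and Vim (0.37, SE 0.03) rose, and Nes (-0.37, SE 0.03) and Synm (-2.06, SE 0.17) fell, with Synm at 13.5, 15.0, 12.7 and 12.9 CPM in NPC P5 and 3.05 to 3.61 CPM in NPC P30. With all 23 groups in one fit only Synm was still called, and Gfap (adjusted p 0.0646), Vim (0.0684) and Nes (0.260) were not. The passages also differed in astrocyte markers (5 higher and 1 lower of 10 tested, 2626 to 2817 against 1789.5 to 1857 CPM, Slc1a3 most abundant) and neuron markers (2 lower of 3 tested, 3.25 to 4.45 against 20.6 to 28.1 CPM, Syt1 most abundant). The groups did not overlap either for progenitor and cycling markers (1 higher and 2 lower of 8 tested, 2361 to 2437 against 2269.7 to 2332 CPM, Fabp7 most abundant), fibroblast (1 lower of 5 tested, 14.8 to 19.4 against 22.8 to 24.7 CPM, Col3a1 most abundant) and pluripotency (1 lower of 3 tested, 9.94 to 13.8 against 15.0 to 21.7 CPM, Esrrb most abundant), and their part was not tested.

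NPC P15 D2 held 51.2 to 55.1 CPM of Gfap, with a median of 52.5 CPM, and NPC P15 D3 39.5, 53.1, 45.7 and 31.9 CPM. Both derivations were wholly above NPC P15. In NPC P15 D2 4 of 5 members tested were called, against 55.9% of all genes tested, with Gfap (log2FC 1.80, SE 0.08), Plec (1.42, SE 0.12) and Vim (0.46, SE 0.04) higher and Synm lower (-1.11, SE 0.22). In NPC P15 D3 2 of 5 were called, against 48.04%, with Gfap higher (1.54, SE 0.15) and Plec lower (-0.68, SE 0.17), the latter lost in 5 of the 8 fits that left out 1 library and with all 23 groups in one fit (adjusted p 0.0343). The number of read data sets and depth cannot be told apart from NPC P15 D2. Marker sums moved too, in NPC P15 D2 for astrocyte markers (6 higher and 2 lower of 9 tested, 3129 to 3531 against 1590.1 to 1621 CPM, Slc1a3 most abundant) and fibroblast (4 higher of 5 tested, 87.9 to 114 against 23.2 to 32.8 CPM, Col3a1 most abundant). The same group was apart for progenitor and cycling markers (4 higher and 2 lower of 8 tested, 3356 to 3603 against 1790.0 to 1812 CPM, Fabp7 most abundant), neuron (2 lower of 3 tested, 3.21 to 12.0 against 20.4 to 24.8 CPM, Syt1 most abundant) and ependymal (1 higher of 2 tested, 15.8 to 22.5 against 8.15 to 12.7 CPM, Foxj1 most abundant). In NPC P15 D3 the sums apart were those of fibroblast markers (4 lower of 5 tested, 4.35 to 6.57 against 23.2 to 32.8 CPM, Col3a1 most abundant), ependymal (1 higher of 2 tested, 27.5 to 36.8 against 8.15 to 12.7 CPM, Foxj1 most abundant) and neuron (2 lower of 3 tested, 5.67 to 10.3 against 20.4 to 24.8 CPM, Syt1 most abundant). Sums of progenitor and cycling markers (4 higher and 2 lower of 8 tested, 2130.3 to 2384 against 1790.0 to 1812 CPM, Fabp7 most abundant) and astrocyte (2 higher and 3 lower of 10 tested, 1697 to 1959.7 against 1590.1 to 1621 CPM, Slc1a3 most abundant) were apart as well, and their part was not tested.

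Lowering EGF and FGF for 4 days brought the largest change of Gfap in culture. SPONT libraries held 9858, 8983, 6400 and 6279 CPM, all far above NPC P15, for a log2FC of 9.15 (SE 0.22). The labels do not give the NPC culture that was differentiated, and with NPC P15 D3 as the reference the log2FC of Gfap was 7.60. Nes went the other way, at 202, 206, 298 and 314 CPM in SPONT against 1577, 1438, 1302 and 1516 CPM in NPC P15, with no overlap. All 6 members tested were called, against 57.2% of all genes tested. They stayed called in the same direction with NPC P15 D3 as the reference. Marker sums of SPONT were compared with those of NPC P15 only.

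Vim (log2FC 0.84, SE 0.06), Synm (1.37, SE 0.26) and Plec (2.07, SE 0.22) rose with Gfap, and Nes fell (-2.39, SE 0.15). Without SPONT replicate 2 Plec was 1.75 higher on the log2 scale. Krt8 came up from 0 in NPC P15 to 1.59, 1.27, 1.46 and 1.85 CPM in SPONT, at least 32.5-fold higher, while Krt18 had 9 counts in SPONT and 2 in NPC P15 (ratio 4.30, interval 0.889 to 40.9). Within SPONT, replicates 1 and 2 had the higher Gfap and the lower Nes, and replicates 3 and 4 the reverse.

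Cell type markers moved in the same comparison. Of 10 astrocyte markers 8 rose and 0 fell, with sums of 1590 to 1621 CPM in NPC P15 and 5545 to 6993 CPM in SPONT, where Aldoc was most abundant. The oligodendrocyte gene Mbp rose from a mean of 5.20 CPM in NPC P15 to 386 CPM in SPONT (log2FC 6.36, SE 0.69). Oligodendrocyte marker sums in SPONT were uneven, at 1224 and 881 CPM in replicates 1 and 2 and 240 and 248 CPM in replicates 3 and 4. Wholly higher in SPONT were the sums of ependymal markers (2 higher of 3 tested, 156.9 to 184.01 against 8.15 to 12.7 CPM, Foxj1 most abundant), progenitor and cycling (3 higher and 4 lower of 8 tested, 2156 to 2741 against 1790.0 to 1812 CPM, Fabp7 most abundant) and neuron (2 higher and 1 lower of 4 tested, 27.8 to 31.01 against 20.4 to 24.8 CPM, Rbfox3 most abundant). Wholly lower were those of fibroblast markers (2 lower of 5 tested, 9.89 to 12.4 against 23.2 to 32.8 CPM, Col3a1 most abundant) and pluripotency (1 lower of 3 tested, 2.07 to 2.79 against 6.63 to 11.9 CPM, Esrrb most abundant). Fewer cells of a type and less RNA per cell cannot be told apart in bulk libraries, here or in any comparison that follows, and the part of cell composition was not tested.

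CNTF, a cytokine that signals through Stat3, raised Gfap, Vim, Nes and Krt8 together. Vim was 5713, 5654, 6061 and 5658 CPM with CNTF and 1656, 1822, 1813 and 1895 CPM in SPONT. Gfap was 21571, 22165, 22548 and 22050 CPM with CNTF, more even than in SPONT. Both genes were wholly higher with CNTF, and 4 of 6 members tested were called, against 19.9% of all genes tested.

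The increases were 1.503 on the log2 scale for Gfap (SE 0.15), 1.70 for Vim (SE 0.06), 0.90 for Nes (SE 0.14) and 2.73 for Krt8 (SE 0.13). Krt8 stood at 9.97, 9.33, 10.7 and 10.5 CPM with CNTF, wholly above SPONT, while its keratin partner Krt18 stood at 0.107, 0.0327, 0.163 and 0.0653 CPM, so the pair that was level in ESC was far from level here. Per length, Krt8 was 5.18 FPKM and Krt18 0.0640 FPKM in CNTF, against 11.8 and 14.6 FPKM in ESC. Epithelial markers in CNTF summed to 0.361, 0.524, 0.416 and 0.702 CPM, with Cldn4, Cldn7 and Esrp1 at the floor, against 1.59 to 2.12 CPM in SPONT. Krt8 was no longer called in this comparison with all 23 groups in one fit (log2FC 2.72, adjusted p 0.202).

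SPONT replicate 2 bears on what was not called. Synm (log2FC -0.24, adjusted p 0.232) and Plec (0.12, adjusted p 0.671) were not called with all libraries, and without that replicate both were (-0.35, adjusted p 0.00973, and 0.43, adjusted p 0.000304), as the number of genes called went from 2961 to 6049. Of 12 regulators of glial filament genes 4 rose and 3 fell with CNTF, with a list median of -0.01, equal to that of all genes, and with Socs3, a feedback inhibitor of cytokine signalling (4.21, SE 0.33), and the cytokine receptor gene Osmr (2.42, SE 0.17) largest. Of 10 linkers and chaperones 3 rose, led by periplakin, Ppl (4.12, from 3.73 to 64.01 CPM). Ependymal markers moved too: 4 of 4 tested rose, their sum was 156.9, 159.8, 175.6 and 184.01 CPM in SPONT and 346.8 to 348.4 CPM in CNTF with Foxj1 most abundant and Tmem212 at the floor, and their part was not tested. Libraries were apart as well for the sums of astrocyte markers (1 higher and 4 lower of 10 tested, 4930.0 to 5397 against 5545 to 6993 CPM, Aldoc most abundant) and neuron markers (1 higher of 4 tested, 31.4 to 35.3 against 27.8 to 31.01 CPM, Rbfox3 most abundant), and their part was not tested.

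IGF-1 and 1% serum also raised Gfap. IGF-1 libraries held 13715, 14614, 12972 and 13454 CPM of Gfap, all above SPONT (log2FC 0.84, SE 0.14, adjusted p 0.00589), and this was the 1 of 6 members called, against 6.55% of all genes tested. That call was lost in 6 of the 8 fits that left out 1 library and with replicate number as a block (adjusted p 0.0162). Without SPONT replicate 2, Nes (-0.60, adjusted p 0.00466, against -0.53 and 0.0329 with all libraries) and Synm (-0.43, adjusted p 0.00277, against -0.32 and 0.103) were called lower, and DESeq2 called Nes with all libraries (adjusted p 0.00944). Mbp averaged 1402 CPM in IGF-1 but was not called. Oligodendrocyte marker sums, which include Mbp, were wholly higher than in SPONT (1906 to 2161.5 against 240 to 1224 CPM). Apart from SPONT were also neuron markers (1 lower of 4 tested, 19.8 to 23.003 against 27.8 to 31.01 CPM, Rbfox3 most abundant), and the part of oligodendrocytes or neurons was not tested.

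With 1% FBS, Gfap was 17348, 21399, 19987 and 15617 CPM and Synm 35.4, 44.4, 30.5 and 37.7 CPM, against 20.8, 12.3, 17.1 and 18.4 CPM of Synm in SPONT. Both were wholly higher with serum, and they were the 2 of 6 members called, against 8.78% of all genes tested (log2FC 1.26, SE 0.17, and 1.12, SE 0.15). Vim libraries were also apart from SPONT, without a call (0.28, adjusted p 0.0480). Marker sums that were wholly higher with 1% FBS were those of smooth muscle markers (3 higher of 4 tested, 18.7 to 66.1 against 2.51 to 3.72 CPM, Acta2 most abundant), fibroblast (1 higher of 5 tested, 20.2 to 114 against 9.89 to 12.4 CPM, Col1a1 most abundant) and ependymal (2 higher of 4 tested, 259.5 to 296 against 156.9 to 184.01 CPM, Foxj1 most abundant). Wholly lower were neuron markers (1 lower of 4 tested, 12.7 to 15.8 against 27.8 to 31.01 CPM, Rbfox3 most abundant), and their part was not tested.

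More serum took Gfap, Vim and Nes along different courses. Gfap means were 18588, 15523, 9388 and 4017 CPM at 1%, 5%, 10% and 20% serum, Vim means 2152, 3782, 4456 and 3879 CPM, and Nes means 231, 383, 313 and 108 CPM. From 1% to 5%, 3 of 6 members tested were called, against 31.1% of all genes tested: Vim (log2FC 0.81, SE 0.10) and Nes (0.72, SE 0.14) rose and Plec fell (-0.72, SE 0.16), the Plec call being lost in 6 of the 8 fits that left out 1 library. Neither Nes (adjusted p 0.0156) nor Plec (0.0282) was called with all 23 groups in one fit. Krt8 was not called (-1.84, adjusted p 0.0201), but was without 5% FBS replicate 2 (-2.67, adjusted p 0.000739), by DESeq2 (0.00273) and with replicate number as a block (-2.10, adjusted p 0.00328). Gfap in 5% FBS, at 18545, 18686, 13090 and 11774 CPM, overlapped 1% FBS and was not called (-0.27, adjusted p 0.259). In the same step marker sums moved without overlap for smooth muscle markers (3 higher of 4 tested, 284 to 422 against 18.7 to 66.1 CPM, Acta2 most abundant), fibroblast (2 higher of 5 tested, 125 to 499.8 against 20.2 to 114 CPM, Col1a1 most abundant) and astrocyte (8 lower of 10 tested, 4250.0 to 5125 against 5846 to 8282 CPM, Aldoc most abundant). Sums also rose without overlap for endothelial and pericyte markers (1 higher of 2 tested, 23.8 to 39.7 against 2.62 to 10.1 CPM, Pdgfrb most abundant), ependymal (1 higher of 4 tested, 360.0 to 418 against 259.5 to 296 CPM, Foxj1 most abundant) and neuron (1 higher of 4 tested, 23.6 to 34.9 against 12.7 to 15.8 CPM, Rbfox3 most abundant). Mbp fell as well (-2.55, SE 0.62, 28.1 against 163.5 CPM), and their part was not tested.

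From 5% to 20%, Gfap, Nes and Plec fell and Vim did not move. Gfap was 4229, 3622, 4077 and 4140 CPM and Nes 121, 106, 123 and 82.2 CPM at 20%, with every library below every 5% FBS library. The 3 of 5 members called, against 26.6% of all genes tested, were Gfap (log2FC -1.99, SE 0.16), Nes (-1.86, SE 0.15) and Plec (-0.71, SE 0.15), of which Plec was lost in 3 of the 8 fits that left out 1 library and with all 23 groups in one fit (adjusted p 0.0501). Vim, at 3970, 3958, 4124 and 3465 CPM, overlapped 5% FBS, at 4108, 3246, 3936 and 3837 CPM (log2FC 0.00, SE 0.09).

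Krt8 went from 24, 52, 14 and 6 counts at 5% serum to 1, 4, 0 and 0 counts at 20% and was too low to be tested. All 10 astrocyte markers fell, from sums of 4250 to 5125 CPM to sums of 2151 to 2282 CPM, and 4 of 4 smooth muscle markers rose, from sums of 422, 297, 300 and 284 CPM to 3234, 3336, 3483 and 2343 CPM, with the smooth muscle actin gene Acta2 most abundant. Also apart were progenitor and cycling markers (5 lower of 8 tested, 1207 to 1357 against 1674 to 2195 CPM, Fabp7 most abundant) and endothelial and pericyte (2 higher of 3 tested, 79.3 to 87.3 against 23.8 to 39.7 CPM, Pdgfrb most abundant). Lower without overlap were ependymal markers (1 lower of 4 tested, 249 to 271 against 360.0 to 418 CPM, Foxj1 most abundant) and neuron (1 lower of 4 tested, 14.9 to 15.6 against 23.6 to 34.9 CPM, Rbfox3 most abundant). Oligodendrocyte marker sums, which include Mbp, were wholly lower at 20% as well (17.84 to 21.56 against 58.45 to 187.2 CPM). Their part in the filament levels was not tested.

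CNTF acted otherwise in serum. With 5% serum present, adding CNTF left Gfap at 14527, 13788, 15567 and 14860 CPM, within the range of 5% FBS (log2FC -0.16, SE 0.16, adjusted p 0.462). Nes, at 239, 202, 200 and 204 CPM, and Synm, at 15.6, 14.2, 14.5 and 14.0 CPM, were wholly below 5% FBS. These were the 2 of 6 members called, against 23.3% of all genes tested (Nes -0.93, SE 0.12, and Synm -1.47, SE 0.10), and without 5% FBS replicate 2 Vim was called as well (-0.30, adjusted p 0.00472, against -0.25 and 0.0308 with all libraries), as it was by DESeq2 (0.00539). Wholly lower with CNTF were the sums of fibroblast markers (4 lower of 5 tested, 15.4 to 18.6 against 125 to 499.8 CPM, Col1a1 most abundant), smooth muscle (3 lower of 4 tested, 97.2 to 121 against 284 to 422 CPM, Acta2 most abundant) and endothelial and pericyte (1 lower of 3 tested, 5.90 to 9.27 against 23.8 to 39.7 CPM, Pdgfrb most abundant). Higher were ependymal markers (1 higher of 4 tested, 461 to 506 against 360.0 to 418 CPM, Foxj1 most abundant), and their part was not tested.

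Against CNTF without serum, CNTF + 5% FBS had 5 of 6 members called, against 72.8% of all genes tested, and all 5 were lower: Gfap (log2FC -0.70, SE 0.03), Vim (-0.90, SE 0.04), Nes (-1.26, SE 0.06), Krt8 (-5.04, SE 0.15) and Plec (-1.67, SE 0.06). Libraries of the groups did not overlap for these genes. Nor did they for the sums of smooth muscle markers (3 higher of 4 tested, 97.2 to 121 against 4.51 to 6.33 CPM, Acta2 most abundant) and progenitor and cycling (2 higher and 5 lower of 8 tested, 1811 to 1953 against 2131 to 2254 CPM, Fabp7 most abundant). The same was true of ependymal markers (1 higher and 1 lower of 4 tested, 461 to 506 against 346.8 to 348.4 CPM, Foxj1 most abundant), neuron (2 lower of 4 tested, 20.0 to 23.8 against 31.4 to 35.3 CPM, Rbfox3 most abundant) and fibroblast (2 higher and 1 lower of 4 tested, 15.4 to 18.6 against 9.06 to 11.7 CPM, Col1a1 most abundant). Mbp fell too (-4.57, SE 0.15, 13.0 against 287 CPM), and their part was not tested. The difference between the CNTF effect in serum and its effect without serum was itself tested, with 5 of 6 members called, against 22.9% of all genes tested, all negative: Gfap (-1.67, SE 0.22), Vim (-1.97, SE 0.10), Nes (-1.83, SE 0.20), Synm (-1.25, SE 0.18) and Krt8 (-2.82, SE 0.55). Among the regulators, Socs3 had the same sign (-3.70, SE 0.35). With all 23 groups in one fit the differences for Synm (adjusted p 0.0118) and Krt8 (adjusted p 0.412) were not called, and without SPONT replicate 2 Plec was (-0.76, adjusted p 0.00132, against -0.47 and 0.166).

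Nes was lower in NPC pipetted in gel than in medium, and lower again after 4 h in gel. Nes was 1308, 1280, 1249, 1276 and 1210 CPM in NPC media, 940, 1014, 930, 873 and 935 CPM in NPC DCH, and 577, 640, 530, 570 and 507 CPM in NPC DCH 4 h. The 3 groups did not overlap, each lower than the one before. Nes was the 1 of 5 members called between NPC DCH and NPC media, against 4.32% of all genes tested (log2FC -0.42, SE 0.04), and again between NPC DCH 4 h and NPC DCH, where 1 of 5 was called against 0.320% (-0.73, SE 0.05). Neither was called with all 23 groups in one fit (adjusted p 0.236 and 0.0212). DESeq2 also called Vim lower in NPC DCH 4 h (-0.13, adjusted p 0.00383). Between NPC DCH and NPC media the sums were apart for progenitor and cycling markers (2 higher and 1 lower of 8 tested, 2450.3 to 2526 against 2109 to 2247 CPM, Fabp7 most abundant) and ependymal markers (1 higher of 3 tested, 26.5 to 38.1 against 19.3 to 24.7 CPM, Foxj1 most abundant), and their part was not tested.

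Gfap was 29.8, 16.1, 15.4, 15.5 and 16.4 CPM in NPC media and 34.6, 25.3, 26.03, 32.1 and 29.6 CPM in NPC DCH. Only NPC media replicate 1 reached into the range of NPC DCH, and without it Gfap was called (log2FC 0.90, adjusted p 0.000144, against 0.67 and 0.0173 with all libraries), as it was with all libraries by DESeq2 (0.00620) and with replicate number as a block (0.00634). Synm libraries were wholly lower in NPC DCH, at 3.00, 1.12, 1.63, 0.422 and 1.21 CPM against 3.73 to 5.96 CPM, without a call (-1.63, adjusted p 0.0380), but were called with all 23 groups in one fit (adjusted p 7.13e-07) and by DESeq2 (0.00439).

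Grafts differed from the gel-suspended NPC in all members that could be tested. Gfap was 14326, 9700, 12367, 8942 and 6890 CPM in Graft uninjured and 18083, 16458, 15351, 12132 and 7287 CPM in Graft SCI 14 d. Synm was 46.6, 102.1, 79.1, 121 and 110 CPM in Graft uninjured and 65.7, 53.5, 50.9, 60.5 and 61.9 CPM in Graft SCI 14 d. Every graft library was above every NPC DCH library for both genes.

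Between Graft uninjured and NPC DCH 5 of 5 members tested were called, against 53.7% of all genes tested, with Gfap (log2FC 8.49, SE 0.24), Synm (5.98, SE 0.50) and Plec (3.55, SE 0.19) higher and Nes (-3.65, SE 0.26) and Vim (-0.68, SE 0.17) lower. Between Graft SCI 14 d and NPC DCH 5 of 5 were called, against 51.6%, with Gfap (9.18, SE 0.24), Synm (5.64, SE 0.44), Plec (3.66, SE 0.31) and Vim (0.66, SE 0.18) higher and Nes lower (-3.46, SE 0.17). The Vim call in Graft SCI 14 d was lost in 9 of the 10 fits that left out 1 library, with replicate number as a block (adjusted p 0.0106) and with NPC media as the reference (0.0122), and held without Graft SCI 14 d replicate 5 (0.82). The comparisons share the NPC DCH libraries.

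Keratins in grafts came from a few libraries. Krt8 had 0, 64, 0, 0 and 56 counts in Graft SCI 14 d, 272, 28, 0, 0 and 12 in Graft uninjured, and 1 count in all of NPC DCH, for ratios of 147 (interval 25.9 to 5846) and 296 (interval 52.7 to 11715). Krt18 had 0, 7, 19, 0 and 36 counts in Graft SCI 14 d and 0, 0, 0, 0 and 23 in Graft uninjured. The libraries with Krt8 were not all those with Krt18. Sums of epithelial markers were wholly higher than in NPC DCH, both in Graft uninjured (1 higher of 2 tested, 15.4 to 42.3 against 0.0562 to 1.98 CPM, Cdh1 most abundant) and in Graft SCI 14 d (1 higher of 2 tested, 6.36 to 22.1 against 0.0562 to 1.98 CPM, Cdh1 most abundant), and their part was not tested.

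Marker genes of other cell types were present in graft libraries. Against NPC DCH, Graft uninjured had all 5 fibroblast, all 10 myeloid, all 6 endothelial and pericyte and all 5 neuron markers higher, and Graft SCI 14 d all 5 fibroblast, 9 of 10 myeloid, 4 of 5 endothelial and pericyte and all 5 neuron markers. Fibroblast marker sums were 1930, 4303, 1663, 4012 and 3005 CPM in Graft uninjured and 1500, 1024, 1262, 1643 and 3814 CPM in Graft SCI 14 d, against 12.9 to 19.8 CPM in NPC DCH. Mbp was higher in both, with means of 11138 CPM in Graft uninjured and 4480.3 CPM in Graft SCI 14 d against 7.67 CPM in NPC DCH. Both graft groups were apart from NPC DCH for progenitor and cycling markers (5 lower of 8 tested, 248 to 818 against 2450.3 to 2526 CPM, Fabp7 most abundant) and astrocyte (7 higher and 2 lower of 10 tested, 5010.2 to 7699 against 2689 to 2816 CPM, Aldoc most abundant) in Graft uninjured and progenitor and cycling markers (7 lower of 8 tested, 427 to 1051 against 2450.3 to 2526 CPM, Fabp7 most abundant) and astrocyte (8 higher of 10 tested, 4938 to 7406 against 2689 to 2816 CPM, Aldoc most abundant) in Graft SCI 14 d.

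Myeloid marker sums were 476, 376, 180, 186 and 1145 CPM in Graft uninjured and 430.1, 334.6, 566, 508 and 1165 CPM in Graft SCI 14 d, with C1qa most abundant. Endothelial and pericyte sums ran from 32.8 to 100 CPM in Graft SCI 14 d and from 47.9 to 398 CPM in Graft uninjured, with Pdgfrb most abundant. Also wholly higher than in NPC DCH were smooth muscle markers (3 higher of 4 tested, 46.0 to 166 against 2.69 to 5.45 CPM, Acta2 most abundant) and ependymal (1 higher of 4 tested, 117 to 181 against 26.5 to 38.1 CPM, Foxj1 most abundant) in Graft uninjured. In Graft SCI 14 d so were smooth muscle markers (2 higher of 3 tested, 50.2 to 101.4 against 2.69 to 5.45 CPM, Tagln most abundant), ependymal (2 higher of 4 tested, 90.5 to 220.3 against 26.5 to 38.1 CPM, Foxj1 most abundant) and pluripotency (1 higher of 2 tested, 13.2 to 41.8 against 4.88 to 10.8 CPM, Tdgf1 most abundant). In NPC DCH the myeloid genes Ptprc and Aif1, the endothelial genes Cldn5 and Cdh5 and the neuronal gene Slc17a6 were at the floor. The part of these cells in the filament levels was not tested.

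Vim was higher in Graft SCI 14 d than in Graft uninjured. Vim was 2888, 2225, 2492, 2255 and 951 CPM in Graft SCI 14 d and 1175, 1017, 1366, 1058 and 583 CPM in Graft uninjured. The groups overlapped only through Graft SCI 14 d replicate 5, the library lowest in Gfap, Vim and Nes and, at 215 CPM, highest in Plec of its group. Vim was the 1 of 6 members called, against 4.64% of all genes tested (log2FC 1.31, SE 0.26, adjusted p 0.00510), and the call was lost in 6 of the 10 fits that left out 1 library, with adjusted p up to 0.0186, and held without replicate 5 of Graft SCI 14 d (1.47). Gfap was not called (0.66, adjusted p 0.103), but was with all 23 groups in one fit (0.62, adjusted p 0.00496) and by DESeq2 (0.68, adjusted p 0.00978). Oligodendrocyte marker sums were wholly lower in Graft SCI 14 d than in Graft uninjured (3822 to 9601 against 10917 to 25701 CPM), and their part was not tested. Graft dSCI, with 1510, 1748, 2222, 1099 and 1035 CPM of Vim, was not compared with Graft uninjured by a test.

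Neurofilament genes, by contrast, were lower in Graft SCI 14 d than in Graft uninjured: Nefl (log2FC -2.82, 105.1 against 902 CPM), Nefm (-2.67), Ina (-2.52) and Nefh (-2.38) were the 4 of 13 other intermediate filaments called, and none was higher (list median -1.39, all genes -0.05). Neuron markers, 2 of 5 lower, summed to 1706, 1041, 953, 791 and 3775 CPM in Graft uninjured and 144, 224, 117, 387 and 275 CPM in Graft SCI 14 d, with Snap25 most abundant, and their part was not tested. The chaperone Hspb1 (1.61, SE 0.28) and the receptor gene Osmr (1.49, SE 0.21) were higher in Graft SCI 14 d.

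Between Graft dSCI and Graft SCI 14 d edgeR called 0 of 5 members tested, against 1.83% of all genes tested, with 2 at an unadjusted p below 0.05 and 1 called by DESeq2. Gfap was 4402, 8131, 9257, 5890 and 6320 CPM in Graft dSCI, overlapping Graft SCI 14 d only through replicate 5 of the latter (log2FC -1.03, adjusted p 0.0451). Without that replicate Gfap was called (-1.16, adjusted p 0.00940), as it was by DESeq2 (0.000325) and with all 23 groups in one fit (1.23e-05). The SE of Gfap was 0.19 in the one fit, against 0.30 in the fit of the pair alone. The p of the one fit does not measure the spread among these grafts alone. The one fit also called Vim lower (-0.50, adjusted p 0.00232, against -0.55 and 0.211). All 5 fibroblast markers were higher in Graft dSCI, with sums of 27243, 10548, 11482, 11162 and 7118 CPM and Col1a1 most abundant. Other sums differed as well, for endothelial and pericyte markers (3 higher of 6 tested, 140.0 to 669.8 against 32.8 to 100.4 CPM, Pdgfrb most abundant), smooth muscle (1 higher of 4 tested, 128.1 to 239 against 50.2 to 101.4 CPM, Tagln most abundant) and myeloid (0 called of 10 tested, 728 to 4991 against 334.6 to 1165 CPM, C1qa most abundant), the last with overlap, and their part was not tested.

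Between Graft SCI 14 d and Graft SCI 5 d edgeR called 0 of 6 members tested, against 5.30% of all genes tested, with 1 at an unadjusted p below 0.05 and 0 called by DESeq2. Synm libraries were wholly lower at 14 d, with means of 58.5 against 74.2 CPM, without a call (log2FC -0.16, adjusted p 0.542). Nes was 190, 209, 226, 72.2 and 88.1 CPM at 5 d and 82.8, 80.8, 68.6, 78.8 and 34.6 CPM at 14 d, with overlap (log2FC -1.03, adjusted p 0.0466). Without Graft SCI 5 d replicate 4, the library with the high myeloid sum, Nes was called (-1.20, adjusted p 0.00873), as it was with all 23 groups in one fit (2.76e-05). Progenitor and cycling marker sums were 686 CPM in that replicate and 1751 to 2797 CPM in the rest of its group, against 427 to 1051 CPM at 14 d. Fibroblast markers, 2 of 5 lower at 14 d, summed to 5794 to 17552 CPM at 5 d, and sums were apart for endothelial and pericyte markers (1 lower of 6 tested, 32.8 to 100.4 against 228 to 367 CPM, Pdgfrb most abundant) and smooth muscle (2 lower of 4 tested, 50.2 to 101.4 against 182 to 1096 CPM, Acta2 most abundant). Low sums were also apart for pluripotency markers (1 higher of 2 tested, 13.2 to 41.8 against 5.02 to 10.8 CPM, Tdgf1 most abundant). Their part was not tested, and the number of read data sets and depth cannot be told apart from Graft SCI 5 d.

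In host astrocytes, injury raised Vim, Nes, Synm and Krt8 without a call for Gfap. Vim in Host healthy ran from 214 to 424 CPM with a median of 298 CPM, and in Host SCI was 2250, 2259, 1736, 1732 and 2075 CPM. Nes ran from 12.0 to 50.5 CPM with a median of 23.6 CPM in Host healthy, and was 106, 89.2, 71.3, 93.1 and 104.5 CPM in Host SCI. Neither gene overlapped, and 4 of 7 members tested were called, all higher, against 41.1% of all genes tested.

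The increases were 2.57 on the log2 scale for Vim (SE 0.13), 1.65 for Nes (SE 0.22), 0.92 for Synm (SE 0.08) and 3.40 for Krt8 (SE 0.85). Krt8 was 0.421, 0.460, 0.444, 0.445 and 0.405 CPM in Host SCI and 0 to 0.133 CPM in Host healthy, with a median of 0. With replicate number as a block it was not called (log2FC 4.28, adjusted p 0.0166), in a fit that also kept only libraries numbered alike in both groups. Without overlap Host SCI was also higher in epithelial markers (1 higher of 3 tested, 9.22 to 21.99 against 1.67 to 6.99 CPM, Cdh1 most abundant), and their part was not tested. Krt18 was called only without Host healthy replicate 4 (3.05, adjusted p 0.00799, against 2.21 and 0.0574 with all libraries).

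Gfap ran from 17898 to 23226 CPM with a median of 21561 CPM in Host healthy and was 24994, 19802, 27722, 28865 and 22080 CPM in Host SCI. The groups overlapped (log2FC 0.05, SE 0.10, adjusted p 0.719). In the same libraries 7 of 10 astrocyte markers fell, from sums of 29300 to 32546 CPM to sums of 11597, 9370, 14984, 19233 and 13790 CPM, with Slc1a2 most abundant in Host healthy and Aldoc in Host SCI.

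Markers of other cells rose in Host SCI. Mbp was higher, with a mean of 19619 CPM against 4312 CPM in Host healthy (log2FC 2.00, SE 0.14), and so were 9 of 10 myeloid markers (225, 1078, 209, 182 and 439 CPM against 17.9 to 32.97 CPM). All 5 fibroblast markers (767, 1383, 848, 1154 and 581 CPM against 131 to 234 CPM, Col1a1 most abundant) and 3 of 4 smooth muscle markers (185, 207, 124, 115 and 193.4 CPM against 24.3 to 42.8 CPM, Tagln most abundant) were higher too. Sums of progenitor and cycling markers (6 higher and 1 lower of 8 tested, 706 to 887 against 497 to 683 CPM, Fabp7 most abundant) and ependymal (2 higher of 5 tested, 239.9 to 331.6 against 120.3 to 218 CPM, Foxj1 most abundant) did not overlap either. Their part in the filament levels was not tested. Hspb1 (log2FC 3.34, 788 against 69.4 CPM), the nuclear lamin gene Lmna (1.73) and Bfsp2, a lens filament gene (2.05), also rose, and of 12 regulators 4 rose and 7 fell, with Osmr (3.01) and Socs3 (3.00) up and the CNTF receptor gene Cntfr down (-1.79).

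Against host cells of the same tissue state, grafts held less Gfap. In injured cord Gfap was lower in every library of Graft SCI 14 d than in any of Host SCI and was the 1 of 7 members called, against 14.6% of all genes tested (log2FC -0.91, SE 0.22, adjusted p 0.00846). That call was lost in 8 of the 10 fits that left out 1 library (adjusted p up to 0.0287), without a filter on low counts (0.0178) and with replicate number as a block (0.0455), and held without Graft SCI 14 d replicate 5 (-0.81). Plec was called higher in the graft only with all 23 groups in one fit (0.70, adjusted p 0.00726, against 0.118). Vim overlapped (0.02, SE 0.22). Synm was called without Graft SCI 14 d replicate 5 (-0.55, adjusted p 0.00599, against -0.43 and 0.0371). Of 10 astrocyte markers 7 were lower and 1 higher in the graft, with sums of 7087, 7406, 6878, 5818 and 4938 CPM. Mbp was lower in the graft (-2.20, SE 0.24), and sums of smooth muscle markers (1 higher and 1 lower of 4 tested, 50.2 to 101.4 against 115 to 207 CPM, Tagln most abundant) and ependymal (2 lower of 5 tested, 90.5 to 220.3 against 239.9 to 331.6 CPM, Foxj1 most abundant) were apart. Lower in the graft were also pluripotency markers (1 lower of 3 tested, 13.2 to 41.8 against 59.5 to 132 CPM, Tdgf1 most abundant), and their part was not tested.

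In uninjured cord 5 of 5 members tested were called between Graft uninjured and Host healthy, against 49.7% of all genes tested. Gfap was lower in the graft (log2FC -1.57, SE 0.15) and Vim (1.23, SE 0.16), Nes (0.93, SE 0.26), Synm (0.81, SE 0.16) and Plec (0.77, SE 0.15) were higher. All 10 astrocyte markers were lower in the graft, where they summed to 6704, 5109, 5010, 5162 and 7699 CPM. Of markers of other cells, 4 of 5 fibroblast, all 10 myeloid, all 5 neuron and 5 of 6 endothelial and pericyte markers were higher in the graft. Their sums there, given above, compare with 131 to 234, 17.9 to 32.97, 152 to 236 and 21.1 to 39.5 CPM in Host healthy. Sums were apart too for smooth muscle markers (2 higher of 4 tested, 46.0 to 166 against 24.3 to 42.8 CPM, Acta2 most abundant), epithelial (1 higher of 2 tested, 15.4 to 42.3 against 1.67 to 6.99 CPM, Cdh1 most abundant) and pluripotency (1 lower of 3 tested, 8.11 to 22.9 against 103 to 137 CPM, Tdgf1 most abundant), and their part was not tested. The Nes call was lost in 5 of the 14 fits that left out 1 library, down to 0.71 without Graft uninjured replicate 3 (adjusted p 0.0286). It was also lost with replicate number as a block (0.78, adjusted p 0.0331), as was that of Synm (0.77, adjusted p 0.0149). That fit also kept only libraries numbered alike in both groups.

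The log2FC of Vim, Nes and Synm with injury was lower in grafts than in host cells. In grafts neither Nes (0.17, adjusted p 0.747) nor Synm (-0.36, adjusted p 0.362) was called with injury. For the difference between the injury effects, 3 of 7 members tested were called, against 16.8% of all genes tested, all negative: Vim (-1.30, SE 0.27, adjusted p 0.000649), Nes (-1.52, SE 0.36, adjusted p 0.00244) and Synm (-1.32, SE 0.23, adjusted p 9.16e-05). Gfap had the opposite sign without a call (0.58, SE 0.25, adjusted p 0.0831). With replicate number as a block, in a fit that also held fewer libraries of Host healthy, Nes was not called (-1.49, adjusted p 0.0111).

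CNTF-treated cultures reached the Gfap CPM of Host healthy with far more Vim and Nes. Gfap averaged 22084 CPM in CNTF and 21064 CPM in Host healthy, with overlapping libraries. After TMM scaling the sign turned and Gfap was called slightly lower in CNTF (log2FC -0.27, SE 0.07), a call lost with all 23 groups in one fit (-0.30, adjusted p 0.138). In all 5 of 6 members were called, against 70.1% of all genes tested: Vim (3.93, SE 0.12), Nes (3.82, SE 0.22) and Krt8 (7.75, SE 0.52) higher in CNTF, Synm (-1.66, SE 0.09) and Gfap lower. Of 10 astrocyte markers 9 were lower in CNTF, with sums of 5054, 4930, 5397 and 5279 CPM. The groups were also apart for progenitor and cycling markers (7 higher of 8 tested, 2131 to 2254 against 497 to 683 CPM, Fabp7 most abundant), myeloid (9 lower of 10 tested, 2.49 to 3.02 against 17.9 to 32.97 CPM, C1qa most abundant), fibroblast (5 lower of 5 tested, 9.06 to 11.7 against 131 to 234 CPM, Col1a2 most abundant) and neuron (1 higher and 4 lower of 5 tested, 31.4 to 35.3 against 152 to 236 CPM, Snap25 most abundant). So they were for ependymal markers (1 higher and 3 lower of 5 tested, 346.8 to 348.4 against 120.3 to 218 CPM, Foxj1 most abundant), pluripotency (2 lower of 3 tested, 1.26 to 1.98 against 103 to 137 CPM, Tdgf1 most abundant), endothelial and pericyte (5 lower of 6 tested, 0.905 to 1.29 against 21.1 to 39.5 CPM, Pdgfrb most abundant) and smooth muscle (1 higher and 2 lower of 4 tested, 4.51 to 6.33 against 24.3 to 42.8 CPM, Tagln most abundant). Mbp averaged 287 CPM in CNTF and 4312 CPM in Host healthy, and their part was not tested.

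**Figure D3:**
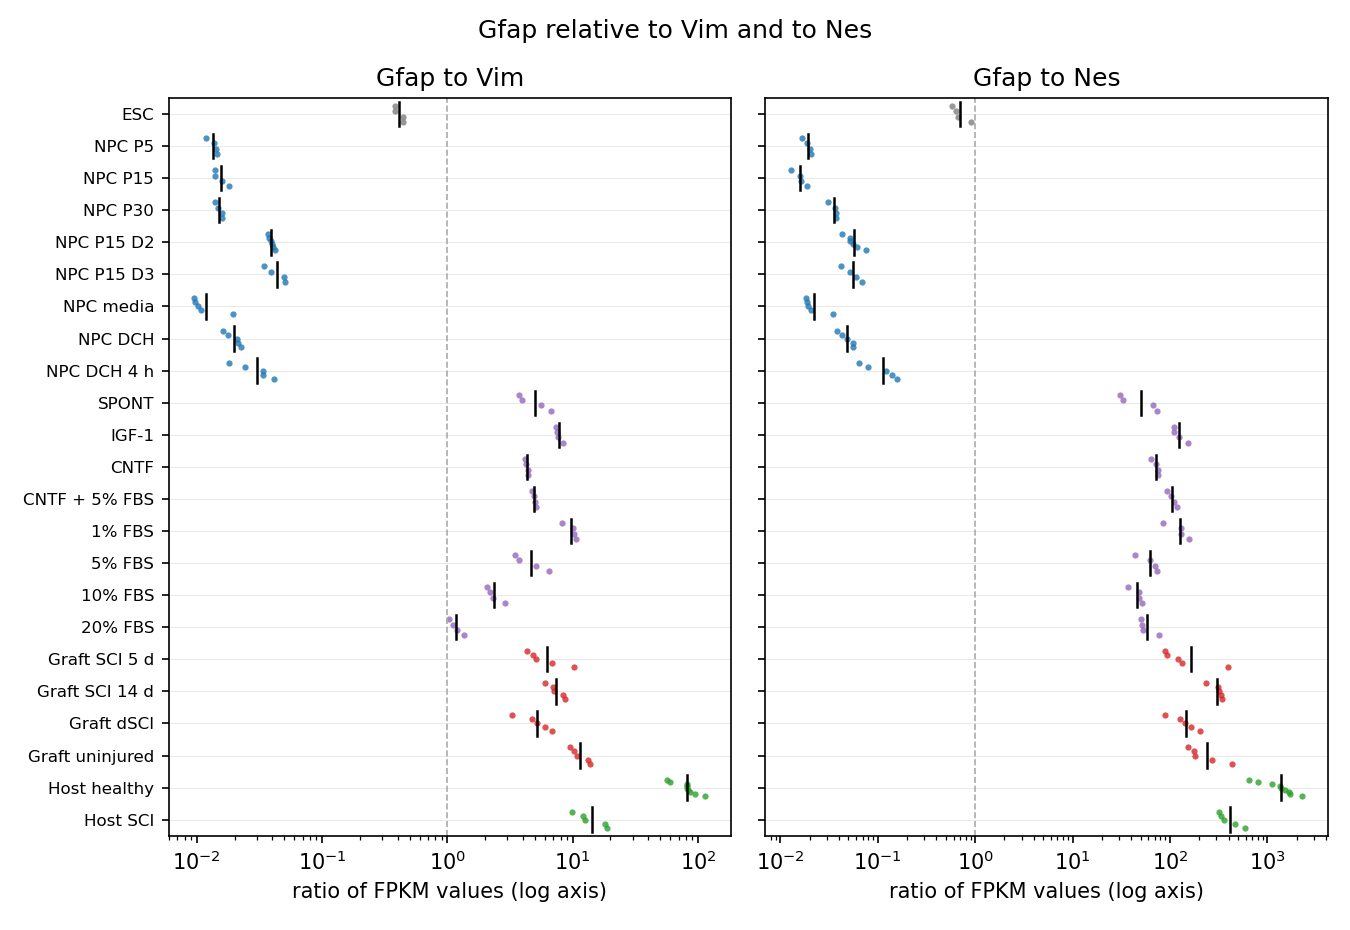
Gfap relative to Vim (left) and to Nes (right) as ratios of FPKM values in each library, on log axes. Each point is 1 library, sorted by value within its group, black bars are group means and the dashed line marks equal FPKM.

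Per length, Gfap stood below Vim and Nes in every NPC and ESC library and above both in every differentiated, grafted and host library. Mean FPKM ratios of Gfap to Vim were 0.410 in ESC, from 0.0119 in NPC media to 0.0434 in NPC P15 D3 among NPC, 4.98 in SPONT, 4.30 in CNTF, 9.71 in 1% FBS, 1.17 in 20% FBS and 82 in Host healthy. Ratios of Gfap to Nes were 0.701 in ESC, from 0.0159 in NPC P15 to 0.112 in NPC DCH 4 h among NPC, 51.0 in SPONT, 72.2 in CNTF, 126 in 1% FBS, 58.0 in 20% FBS and 1391 in Host healthy. Host healthy was apart from all other groups for both ratios. Gfap made up 81.0% of the summed FPKM of the 6 filament genes in SPONT, 53.1% in 20% FBS, 98.6% in Host healthy and 92.7% in Host SCI.

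Differences of log2 count ratios were tested by exact two-sided permutation over libraries, with p adjusted over 18 tests and a threshold of 0.05. In Host SCI the FPKM ratio of Gfap to Vim was 12.5, 9.86, 18.0, 18.7 and 12.0, against 56.6 to 114 with a median of 81.9 in Host healthy. That of Gfap to Nes was 360, 338, 592, 472 and 321, against 643 to 2271 with a median of 1392. Both were wholly lower after injury, in 5 of 5 libraries (log2 difference -2.55 and -1.69, exact permutation p 0.000999, the smallest possible here, adjusted 0.00899 for each).

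In grafts, the FPKM ratio of Gfap to Vim was 7.04, 8.32, 6.93, 6.05 and 8.62 in Graft SCI 14 d and 13.7, 10.7, 10.2, 9.51 and 13.3 in Graft uninjured. The groups did not overlap (log2 difference -0.63, exact permutation p adjusted 0.0286). The ratio to Nes overlapped (0.44, exact permutation p adjusted 0.242). Graft SCI 14 d was also wholly below Host SCI for the ratio to Vim (-0.91, exact permutation p adjusted 0.0286), and overlapped it for the ratio to Nes (-0.41, exact permutation p adjusted 0.0714).

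In Graft dSCI the FPKM ratio of Gfap to Nes was 88.8, 144, 165, 127.5 and 202, against 332.4, 310, 341, 234 and 320 in Graft SCI 14 d. It was lower in all 5 libraries (log2 difference -1.12, exact permutation p adjusted 0.0286). The ratio to Vim was 3.28, 5.23, 4.69, 6.03 and 6.86, overlapping Graft SCI 14 d (-0.53, exact permutation p adjusted 0.0476), and it no longer passed in 8 of the 10 repeats that left out 1 library, with differences from -0.64 to -0.38 over all 10. At 5 d the ratio to Nes was 132, 94.01, 90.1, 120 and 396 and did not pass against 14 d (1.13, exact permutation p adjusted 0.0714), but passed without replicate 5 of Graft SCI 5 d (1.501, adjusted 0.0408).

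In culture, 4 libraries against 4 cannot give an exact permutation p below 0.0286, which adjusted to 0.0514 over these 18 tests, and no ratio passed. The FPKM ratio of Gfap to Vim was 6.69, 5.54, 3.97 and 3.73 in SPONT, 10.2, 10.5, 10.0 and 8.15 in 1% FBS and 4.25, 4.41, 4.18 and 4.38 in CNTF. Thus 1% FBS was apart from SPONT and CNTF lay within its range. At 20% serum it was 1.198, 1.03, 1.11 and 1.34, against 5.08, 6.47, 3.74 and 3.45 at 5%, with no overlap, while the ratio to Nes overlapped between these groups.

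Across the 23 group means of log2 CPM, with 1 added, Gfap went most closely with Synm among the members (Pearson's r 0.83) and against Nes (-0.64, and -0.82 over 22 groups without ESC). Nes went against Plec (-0.72). Krt8 and Krt18 had an r of 0.75 with ESC and 0.18 without, so their likeness rested on ESC. These points share cell lines and depth differences and are a description only.

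Among 13133 genes with a mean of 10 CPM or more in at least 1 group, the 5 most like Gfap over the 23 groups were Id4 (r 0.983), Psd2, Nme5, Gm973 and Igsf11 (0.975). Those most like Vim were Glt8d1 (0.948), Bmp1, Tmem43, Ehd2 and Snx33, and those most like Nes were Limd1 (0.953), Peg12, Srprb, Zcchc9 and Itprip. Synm was most like Rcan2 (0.946), Ctsl, Car11, Tmem117 and Fbxo32, and Plec most like Nfatc2 (0.907), Coro7, Amz1, Fry and Atcay. Krt8 was most like Dnah10 (0.894), Psors1c2, Ddx4, Trim13 and Zfp57, and Krt18, with r of 0.995 or more, most like Psma8, Hal, Grhl2, Wfdc2 and Plet1, all highest in ESC.

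Krt8 and Krt18 lie 23873 bases apart on chromosome 15, which also holds Plec. Promoter sequence from RefSeq (build GRCm38.p6) was at hand for 6 of the 7 members, and Plec had no entry. The 250 bases before the start of Gfap (chr11:102897201-102897450, minus strand) and of Vim (chr2:13574061-13574310, plus strand) are shown because these genes moved together with CNTF and apart with serum and injury. Capitals mark matches, searched on both strands, to the TATA box (TATAAA), the CCAAT box, the STAT motif (TTC, any 3 bases, then GAA) and the AP-1 motif (TGA, any 1 base, then TCA), which 12.4%, 33.8%, 7.02% and 6.75% of 32851 promoters of this length hold.
Gfap: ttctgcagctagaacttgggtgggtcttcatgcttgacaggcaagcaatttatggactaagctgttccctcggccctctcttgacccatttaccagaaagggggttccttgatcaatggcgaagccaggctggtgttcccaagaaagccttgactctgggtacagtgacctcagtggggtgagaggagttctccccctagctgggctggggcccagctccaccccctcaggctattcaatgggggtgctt
Vim: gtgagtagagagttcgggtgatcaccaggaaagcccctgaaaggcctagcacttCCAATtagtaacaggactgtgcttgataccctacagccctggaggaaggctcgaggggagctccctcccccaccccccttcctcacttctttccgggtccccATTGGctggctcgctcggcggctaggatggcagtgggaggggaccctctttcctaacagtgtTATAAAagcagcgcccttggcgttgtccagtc
Gfap held none of the 4 motifs in this window. Vim held TATAAA starting 32 bases before the start and CCAAT at 196 bases (plus strand) and 94 bases (minus strand, printed as ATTGG), Synm held CCAAT at 78 bases (minus strand), and Nes, Krt8 and Krt18 held none. A match is a description of the letters and not of a site.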

How the data were processed

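Ribosome-bound RNA of RiboTag cells was measured in 23 groups of mouse libraries, grouped by their titles. The deposited files hold raw counts of reads per gene for 27179 Entrez identifiers, which the authors made from poly-A libraries by joining lanes, trimming with Trimmomatic, aligning with HISAT2 to mm10 and counting with featureCounts at default settings. Counting used no strand, so reads from exon bases shared with a gene on the other strand cannot be told apart (Synm with Gm45102, 5.4% of its exon bases, and with Ttc23, 1.1%, and Krt8 with Gm36026, 5.2%). Plec shares 1.1% with Parp10 on its own strand, and gene counts cannot see isoforms of Gfap. Totals were 12286240 to 18085106 counts in the 11 libraries with 1 read data set and 30473157 to 147764968 in the other 96. A library with 3 or fewer counts of a gene was read as at the floor, since 3 is the upper 95% limit that a count of 0 allows if counts are independent. Where both ends of a fragment were counted they are not, and the limit is higher.

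Identifiers were named from RefSeq (25275 genes) and exon lengths taken from GENCODE M21 (21572 genes), with Python 3.11.15, pandas 2.3.3, NumPy 2.4.6 and, for plots, Matplotlib 3.10.9. CPM is the count scaled by the library total and FPKM is CPM over kilobases of union exon. Each comparison of 2 groups was fitted on its own in R 4.3.3 with edgeR 4.0.16 (quasi-likelihood F test, TMM scaling, filterByExpr with a minimum count of 10, Benjamini-Hochberg adjustment over all genes tested, called at adjusted p below 0.01). The CNTF by 5% FBS and the injury by graft or host interactions were each fitted on 4 groups. SE is the absolute log2FC over the square root of F. Log2 count ratios of Gfap to Vim and to Nes were compared by exact two-sided permutation with SciPy 1.17.1, adjusted over 18 tests, with a threshold of 0.05. Likeness is Pearson's r of group means of log2 CPM, with 1 added. The procedure was tested on simulated data.

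Alternatives were DESeq2 1.42.0, its size factors in edgeR, no filter on low counts, a minimum count of 50, replicate number as a block, all groups in one fit, TMM-scaled CPM, differences of medians, NPC media as the reference for grafts, NPC P15 D3 as the reference for SPONT, and leaving out each library. The members and the lists (other intermediate filaments, linkers and chaperones, regulators, and markers of other cell types) were chosen with earlier results of these data known, and they, the tests and the alternatives were fixed before the files were examined. All 7 members are named. Of the genes called in another list, up to 4 with the largest absolute log2FC could be named if either group averaged 10 CPM or more, and for likeness the 5 genes with the highest r.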

Additional observations from a re-analysis of the deposited data

Results flagged for a closer look

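A library was picked out where its gap to the nearest other library, over the whole range of its group, was above Dixon's 95% critical value. Sets with every library at the floor were not examined. This held in 14 of 144 sets of a member and a group and in 6 of 46 sets of a log2 ratio and a group, and where several libraries hold counts chance alone gives about 1 in 20. In 6 of the 14 a single library held counts, which this rule always picks out, and 8 of the other 138 sets remained. The CPM values were Gfap in NPC media replicate 1 (29.8), Vim in NPC P15 replicate 1 (1074, the lowest of its group) and in CNTF replicate 3 (6061), Nes in CNTF + 5% FBS replicate 1 (239), and Plec in SPONT replicate 2 (117) and in 20% FBS replicate 3 (24.4).

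Among the keratins they were Krt8 in NPC P30 replicate 1 (0.0406 CPM), Graft uninjured replicate 1 (3.18) and Graft dSCI replicate 4 (0.296), and Krt18 in 5% FBS replicate 4 (0.0856), 20% FBS replicate 2 (0.0527), Host SCI replicate 5 (0.642), Graft uninjured replicate 5 (0.288) and Graft dSCI replicate 4 (0.480). Except for Krt8 in Graft uninjured and Krt18 in Host SCI, the other libraries of these groups held 0 counts.

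Among FPKM ratios they were Gfap to Vim in NPC media replicate 1 (0.0195), and Gfap to Nes in NPC P30 replicate 4 (0.0307, the lowest of its group), 20% FBS replicate 4 (76.6), NPC media replicate 1 (0.0347), Graft SCI 14 d replicate 4 (234, the lowest of its group) and Graft SCI 5 d replicate 5 (396).

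Effects differed between groups by interaction tests in edgeR. The log2FC with CNTF was lower with 5% serum than without for Gfap (-1.67), Vim (-1.97), Nes (-1.83), Synm (-1.25) and Krt8 (-2.82). The log2FC with injury was lower in grafts than in host cells for Vim (-1.30), Nes (-1.52) and Synm (-1.32).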

How the results depend on the processing

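No value past its threshold in either fit changed direction. Of log2FC values of members under alternatives, 2274 kept their side of the threshold, 70 lost a call and 32 gained one. Of ratio differences that could pass, 99 kept their side, 8 no longer passed and 1 newly passed. The other 100 (medians, replicate number as a block, and repeats too small to pass) were compared by value alone and moved by less than 1 SD. As a block, 5 pairs allow no exact permutation p below 0.0625. Counts of members called stayed within 1.5 times in 363 fits and not in 49, counts of genes called in 327 and 85. With TMM-scaled CPM, 130 group means moved by less than 1 SD between replicates and 31 by more. The cause was not tested.

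With all 23 groups in one fit, members called were 1 in NPC P30 vs NPC P5, 1 in NPC P15 D3 vs NPC P15, 1 in 5% FBS vs 1% FBS, 0 in NPC DCH 4 h vs NPC DCH, 2 in Graft SCI 14 d vs Graft uninjured, 2 in Graft dSCI vs Graft SCI 14 d, 1 in Graft SCI 14 d vs Graft SCI 5 d, 2 in Graft SCI 14 d vs Host SCI and 3 in the CNTF by 5% FBS interaction. DESeq2 called 2 in IGF-1 vs SPONT, 3 in NPC DCH vs NPC media, 2 in NPC DCH 4 h vs NPC DCH, 2 in Graft SCI 14 d vs Graft uninjured and 1 in Graft dSCI vs Graft SCI 14 d. Without the filter on low counts 0 were called in Graft SCI 14 d vs Host SCI. Members called are to be read against all genes called at the same setting, which changed too. In Graft SCI 14 d vs Graft uninjured 4956 of 19419 genes were called with all 23 groups, against 734 of 15813 reported. In Graft dSCI vs Graft SCI 14 d they were 4205 of 19419, against 289 of 15790. In NPC P30 vs NPC P5 fewer were called, 2414 against 5182. Whether members were called more often than other genes was not tested.

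Leaving out each library gave 1 to 2 members called in NPC P15 D3 vs NPC P15, 0 to 3 in IGF-1 vs SPONT, 1 to 2 in NPC DCH vs NPC media, 0 to 1 in Graft SCI 14 d vs Graft uninjured, in Graft dSCI vs Graft SCI 14 d and in Graft SCI 14 d vs Graft SCI 5 d, and 0 to 2 in Graft SCI 14 d vs Host SCI. The log2 difference of the Gfap to Vim ratio in Graft dSCI vs Graft SCI 14 d ran from -0.64 to -0.38, and that of the Gfap to Nes ratio in Graft SCI 14 d vs Graft SCI 5 d from 0.97 to 1.501.

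Genes called in one fit of all groups, after those reported, were 5182 and 2414 in NPC P30 vs NPC P5, 7354 and 3980 in NPC P15 D2 vs NPC P15, 2961 and 1143 in CNTF vs SPONT, 979 and 399 in IGF-1 vs SPONT, 1312 and 572 in 1% FBS vs SPONT, 4730 and 2087 in 5% FBS vs 1% FBS, 4074 and 1349 in 20% FBS vs 5% FBS, 3564 and 419 in CNTF + 5% FBS vs 5% FBS, 11072 and 5040 in CNTF + 5% FBS vs CNTF, 8085 and 12275 in Graft uninjured vs NPC DCH, 7757 and 12025 in Graft SCI 14 d vs NPC DCH, 734 and 4956 in Graft SCI 14 d vs Graft uninjured, 289 and 4205 in Graft dSCI vs Graft SCI 14 d, 811 and 4263 in Graft SCI 14 d vs Graft SCI 5 d, 2425 and 4970 in Graft SCI 14 d vs Host SCI, and 3600 and 718, and 2947 and 4750, in the CNTF and injury interactions. In NPC DCH vs NPC media the genes called went from 599 (44.2% higher, 334 genes lower) to 54.8% higher with 155 genes lower, and in NPC DCH 4 h vs NPC DCH from 6 higher and 38 lower to 87 and 81.

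DESeq2 called 3619 genes in IGF-1 vs SPONT, 2555 in 1% FBS vs SPONT, 1021 in NPC DCH vs NPC media, 162 in NPC DCH 4 h vs NPC DCH, 1918 in Graft SCI 14 d vs Graft uninjured, 1276 in Graft dSCI vs Graft SCI 14 d, 1775 in Graft SCI 14 d vs Graft SCI 5 d and 3709 in Graft SCI 14 d vs Host SCI. A minimum count of 50 gave 69 in NPC DCH 4 h vs NPC DCH and left Krt8 untested in 6 comparisons and Krt18 in 3. No filter gave 440 in Graft dSCI vs Graft SCI 14 d. DESeq2's size factors moved no share of higher calls by over 10 points.

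Leaving out 1 library gave 0 to 5724 genes in IGF-1 vs SPONT, 628 to 1975 in 1% FBS vs SPONT, 2027 to 6049 in CNTF vs SPONT, 1968 to 3908 in CNTF + 5% FBS vs 5% FBS, 385 to 656 in NPC DCH vs NPC media, 232 to 1576 in Graft SCI 14 d vs Graft uninjured, 0 to 1061 in Graft dSCI vs Graft SCI 14 d, 350 to 1191 in Graft SCI 14 d vs Graft SCI 5 d and 2702 to 6049 in the CNTF interaction.

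With replicate number as a block, members called were 0 in IGF-1 vs SPONT, 2 in NPC DCH vs NPC media, 0 in Graft SCI 14 d vs Host SCI and 3 in Graft uninjured vs Host healthy, and genes called were 1 in IGF-1 vs SPONT, 833 in 1% FBS vs SPONT, 393 in NPC DCH vs NPC media, 0 in Graft dSCI vs Graft SCI 14 d, 269 in Graft SCI 14 d vs Graft SCI 5 d, 4251 (6933 without the block) in Host SCI vs Host healthy, 1177 in Graft SCI 14 d vs Host SCI, 5093 (8209) in Graft uninjured vs Host healthy and 1719 in the injury interaction. Where groups were unequal in size, as with Host healthy, the block fit kept only libraries numbered alike in both groups. There the block and the set of libraries changed at once, so a lost call cannot be put down to the block alone. In no comparison did every same-numbered pair of libraries have an r above 0.1 or every library go best with its own number, so the number was not taken as a pairing.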
